A study of Rattus norvegicus with 2 samples.

Results

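Ependymal cells of the hypothalamus were examined in single-cell RNA sequencing of female rats, in which neonatal estradiol benzoate given by silicone capsule was compared with a Control group. A cell was selected on 3 ependymal genes, Tmem212, Ccdc153 and Pifo, all of which had to be detected, with a summed level of at least 10 UMIs per 10000 UMIs of the cell. UMIs are molecular tags that count single RNA molecules. Foxj1, the fourth gene of the rule, was not analysed here. This left 183 of 8675 cells with at least 200 detected genes, of which 105 came from 4296 Control cells and 78 from 4379 SC300 cells. The levels of the 3 rule genes are therefore a description of how the cells were chosen by these genes and not a finding.

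Both groups were Sprague Dawley females, examined on PND 29 (postnatal day), at 4 weeks of age. SC300 rats carried, from PND 0.5 on, a silicone capsule with 300 µg estradiol benzoate (EB), an ester of estradiol that is released slowly, in sesame oil. Control rats are called intact in the labels, while the methods describe a capsule with oil alone. Hypothalamic tissue holding the AVPV and ARC was pooled from 3 rats per group and gave 1 library each, so a difference between the libraries cannot be told apart from a difference between 2 pools of rats, and no test between groups was possible. Intervals below are exact 95% intervals that cover counting error only. The Control library held 52004789 UMIs in 4488 barcodes and the SC300 library 57013099 UMIs in 4524 barcodes. The 2 barcode lists shared 9 barcodes, and none of the 183 selected cells was among them.

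Ependymal cells form the lining of the brain ventricles. Most carry a tuft of motile cilia whose beat moves the cerebrospinal fluid, and each cilium is built on a basal body from microtubule doublets, dynein arms, radial spokes and a central pair. The program is switched on by a small set of transcription factors that includes Foxj1, the RFX family, Myb and Tp73. In the floor of the third ventricle this lining gives way to tanycytes, which have a long basal process, few cilia, and known roles in thyroid hormone handling and in the release of neurohormones.

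The label was checked with Dynlrb2, a dynein light chain that the rule did not use. Dynlrb2 was detected in 105 of 105 Control and 78 of 78 SC300 selected cells, against 2.63% and 0.825% of microglia, a cell type without motile cilia. After each cell was thinned to 2000 UMIs, 90.3% and 94.8% of the selected cells still had a Dynlrb2 UMI. The gene did not set the selected cells apart from tanycyte cells as sharply, since 39 of 42 Control and 30 of 32 SC300 cells chosen by tanycyte genes also had a UMI, and 59.5% and 51.6% after thinning. Other genes split the selected cells into 2 kinds, as the plot of Crym against the rule genes shows. Crym codes for a thyroid hormone-binding protein that marks tanycytes. No Crym UMI was found in 58 Control and 48 SC300 selected cells, whereas 41 Control and 21 SC300 cells carried at least 2 Crym UMIs per 10000, a cut set after the data were seen. Of the 47 Control and 30 SC300 selected cells with a Crym UMI, 10 and 2 lay between 1 and 4. The 64 Control and 57 SC300 cells under the cut are called Crym-low here, and the others Crym-high.

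**Figure D1:**
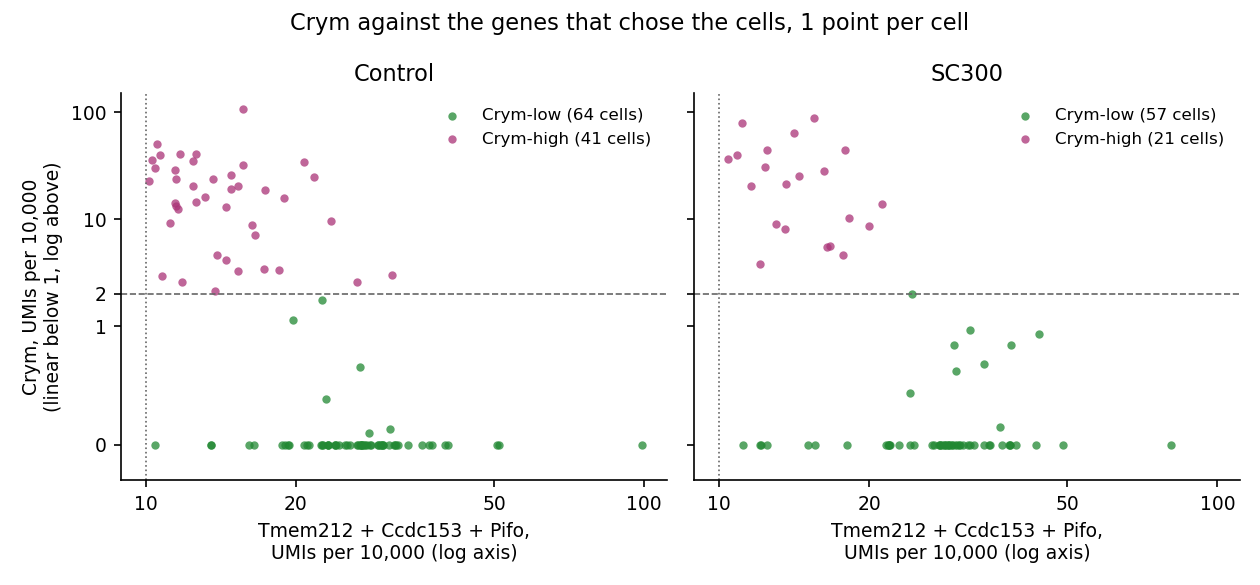
Crym level (vertical axis, UMIs per 10000 UMIs) against the summed level of Tmem212, Ccdc153 and Pifo (horizontal axis, UMIs per 10000 UMIs) in each selected cell, with Control on the left and SC300 on the right; the dashed line marks 2 Crym UMIs per 10000 and the dotted line the limit of 10 that admits a cell. Most cells with high rule-gene levels held no Crym, and the cells above the dashed line (41 Control, 21 SC300) lay mostly near the dotted line.

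The Crym-low cells held the genes of the multiciliated state. Ccdc78, which acts in centriole amplification, was detected in 92.2% of Control and 84.2% of SC300 Crym-low cells, against 9.76% and 14.3% of Crym-high cells. The transcription factor Tp73 was found in 85.9% and 77.2% of Crym-low cells but in 4.88% and 4.76% of Crym-high cells. Stoml3, a stomatin-family membrane protein found in motile cilia, had a UMI in 84.4% and 78.9% of Crym-low cells and again in 4.88% and 4.76% of Crym-high cells. Depth differed between the kinds, so detection was also counted after thinning. With every cell thinned to 2000 UMIs, Ccdc78 remained in 30 of 62 and 22 of 56 Crym-low cells, but in 1 of 41 and 1 of 21 Crym-high cells. A set of 6 multiciliated genes (Ccdc78, Tp73, Stoml3, Krt8, Myb and Sntn) reached at least 3 UMIs in 62 of 64 Control and 52 of 57 SC300 Crym-low cells. No UMI of any of the 6 was seen in 34 of 41 and 17 of 21 Crym-high cells.

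Between the kinds, 601 of 5812 genes (10.3%) were over 2-fold higher in Crym-low cells of both libraries and 210 (3.61%) were over 2-fold lower. Since the cut was made on the same cells, these counts are a description. In Control cells, Col11a1, a collagen chain, had 1365 UMIs in Crym-low and 7 in Crym-high cells. Crym-high cells held genes known from tanycytes instead. Dlk1, a Notch-like ligand, had 112 UMIs in Control Crym-high cells and 3 in the larger Crym-low pool. Other tanycyte markers were sparse in the selected cells and in the 42 Control and 32 SC300 cells chosen by tanycyte genes. Rax, a transcription factor that defines tanycytes, had 1 UMI in Control and 2 in SC300 selected cells, and 9 and 7 UMIs in tanycyte cells. Gpr50, an orphan receptor, had 2 and 0 UMIs in selected cells and 1 and 0 in tanycyte cells. Of the 9 tanycyte markers found in the files, 3 had at least 50 UMIs in all, among them Crym (1041 and 599 UMIs) and Frzb (98 and 5). These markers do not settle whether the Crym-high cells are tanycytes, and no name is given to them here. The label "ependymal" was therefore met by the Crym-low cells, about 66.1% of the selected cells, while the Crym-high cells shared part of the cilium program with them and some genes with tanycytes. All selected cells were kept in the main results, and values for Crym-low cells are given beside some of them.

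**Figure D2:**
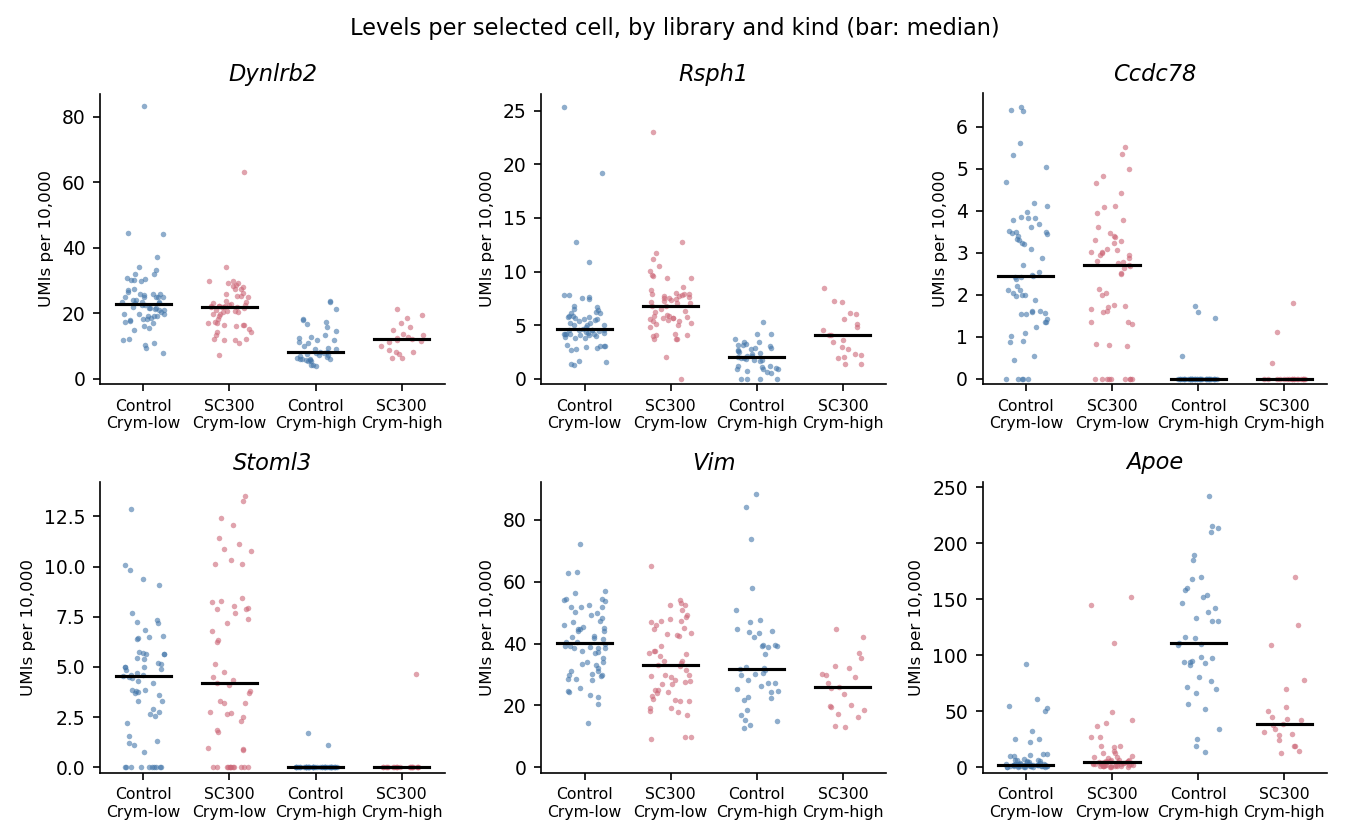
Level in each selected cell (UMIs per 10000 UMIs) of Dynlrb2, Rsph1, Ccdc78, Stoml3, Vim and Apoe, by library and kind; 1 point is 1 cell and the bar is the median. Ccdc78 and Stoml3 have a median of 0 in the Crym-high cells of both libraries, Dynlrb2 is present in both kinds, and Apoe is low in most Crym-low cells.

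Levels per cell showed the same split. The median Dynlrb2 level was 22.9 UMIs per 10000 in Control Crym-low cells and 21.8 in SC300 Crym-low cells, against 8.34 and 12.1 in Crym-high cells. Rsph1, a radial spoke protein, had medians of 4.63 and 6.83 in Crym-low and of 2.04 and 4.06 in Crym-high cells. Apoe, the lipid carrier that astrocytes and tanycytes make in quantity, ran the other way, with medians of 2.47 and 4.41 in Crym-low and of 111 and 38.6 in Crym-high cells. Vim, the intermediate filament vimentin, was present in all cells, with medians of 40.1 and 33.0 in Crym-low and of 31.7 and 25.9 in Crym-high cells.

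Cells at the limit of the rule were mostly of the Crym-high kind. The lowest admitted sums were 10.1, 10.3 and 10.4 UMIs per 10000 in Control and 10.4, 10.9 and 11.1 in SC300, and the highest refused sums among cells with all 3 genes were 9.97, 9.91 and 9.71 and 9.74, 9.74 and 9.70. A further 20 Control and 5 SC300 cells had a sum above the limit but lacked a rule gene. In all, 80 Control and 57 SC300 cells had the 3 rule genes but a lower sum, and 72 (90%) and 56 (98.2%) of these held at least 2 Crym UMIs per 10000. Depth also differed by kind. The median was 32807 UMIs per cell in Control Crym-low cells and 14857 in SC300 Crym-low cells, against 10861 and 10069 in Crym-high cells. Mitochondrial UMIs made up a median of 17.7% in Control and 19.3% in SC300 selected cells, and 35 cells of each library were above 20%. A doublet caller marked 2 Control cells and 1 SC300 cell.

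Selected cells made up 2.44% of the Control library (interval 2.00 to 2.95) and 1.78% of the SC300 library (1.41 to 2.22) (log2 ratio -0.46, interval -0.90 to -0.02). Crym-low cells made up 1.49% and 1.30% (log2 ratio -0.19, interval -0.74 to 0.34), an interval that includes 0. With the limit raised to 20 UMIs per 10000 the log2 ratio of all selected cells was -0.21 (-0.78 to 0.35), which also includes 0. Crym-high cells made up 0.954% (interval 0.686 to 1.29) and 0.480% (0.297 to 0.732), and whether the kinds differed in this was not tested. Crym-high cells were 39.0% of the selected cells in Control and 26.9% in SC300.

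The cilium genes were grouped by the part of the cilium they build. Of 285 genes on 11 such lists, 253 were found in the files, and 217 had at least 50 UMIs in the selected cells of both libraries together. In the transcription program, Control selected cells held 486 UMIs of Tp73, 319 of Rfx2 and 294 of Myb, and SC300 cells 380, 208 and 228. In the outer dynein arm list, the light chain Dynll1 had 5461 and 3643 UMIs, and the heavy chain Dnah9 had 791 and 506. In the inner arm list, the heavy chain Dnah12 had 3095 and 1537. Zmynd10, which assembles dynein arms in the cytoplasm, had 1752 and 1214 UMIs. Hydin, a giant protein of the central pair, had 2184 and 1438, and Drc1, of the nexin-dynein complex that links the doublets, had 1178 and 730. Cfap126, an inner protein of the doublet microtubules, had 3006 and 2172 UMIs, and Ift27, of the transport trains that build the cilium, had 953 and 671. The tubulins Tuba1a and Tubb4b were the most counted members, with 10019 and 6621 UMIs in Control and 6827 and 4538 in SC300. The SC300 selected cells held 1815757 UMIs in all and the Control ones 2940505, and the comparisons of libraries that follow are scaled to these totals.

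Against other glia, members of every cilium list were higher in the selected cells of both libraries. Such a contrast is the same as the one that chose the cells, so it is given without a test. Against 42 Control and 32 SC300 cells chosen by tanycyte genes, 816 of 6700 genes (12.2%) were over 2-fold higher in both libraries and 368 (5.49%) were over 2-fold lower. All 10 measured inner dynein arm genes and all 13 measured central pair genes were among the higher ones, but fewer of the other lists were, with 4 of 7 for the transcription program, 12 of 21 for the basal body, 8 of 13 for the radial spokes and 16 of 37 for intraflagellar transport. In Control, Stoml3 had 1069 UMIs in selected and 0 in tanycyte cells, Msx1, a homeobox transcription factor, had 696 and 2, and Krt8, a keratin of simple epithelia, had 658 and 4. On the lower side, Tac3, the gene of the neurokinin precursor, had 2 UMIs in Control selected cells and 337 in tanycyte cells. Dlk1 had 115 and 645, and Frzb, a secreted Wnt antagonist, had 98 and 523. Frzb helped to choose the tanycyte cells, so its excess there was set by that choice. Against 1585 Control and 1697 SC300 astrocytes, 1451 of 10726 genes (13.5%) were over 2-fold higher in both libraries and 1836 (17.1%) were over 2-fold lower. Sntn, a protein of the ciliary tip, had 260 UMIs in Control selected cells and 2 in astrocytes. The astrocyte transporter Slc7a10 had 10 and 11945 UMIs, and the astrocyte connexin Gjb6 had 10 and 3862. Slc7a10 helped to choose the astrocytes, so its excess there was set by that choice, whereas Gjb6 was not used.

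Many of these cilium genes share a short sequence in their promoters. RFX transcription factors bind the X-box, whose core repeat is GTTGCC, and the longer form GTTGCCAT includes that core. Promoters of 300 bases, from 250 before to 50 after the start, were taken from RefSeq (rat build GRCr8), and both strands were searched. A promoter was found for 211 of the 253 cilium-list genes. GTTGCC occurred in 83 of them (39.3%), against 3343 of 27457 promoters of all genes (12.2%). GTTGCCAT occurred in 16 (7.58%) against 337 (1.23%). The forkhead motifs TGTTTAC and TGTTTGT, letters of the kind that Foxj1 binds, occurred in 24 (11.4%) against 2650 (9.65%). A match is a run of letters and not a proven binding site. The windows below show the long form in capitals in the 8 holders with the most UMIs in selected cells, each 30 bases long, to let the shared core and its surroundings be compared.
Mlf1: tgtttaccccgGTTGCCATagcggccacgc
Tmem107: ggcgccgcccgGTTGCCATggtaactgcgt
Cfap161: tagcgtgcttcGTTGCCATgacgaccaggc
Tekt1: cgttgcgtccgGTTGCCATagtgaccgcag
Dync2li1: caggctccttgGTTGCCATggcagcgacgt
Iqcg: ctgcgcgtcacGTTGCCATagctacccatt
Spag8: ccgcctaccggGTTGCCATagagacggcaa
Dnah2: cccggccccgaGTTGCCATggcgacgcgtg

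The windows lie on GRCr8 at chr2:153958429-153958458 (Mlf1, plus strand), chr10:54271185-54271214 (Tmem107, minus strand), chr1:147177862-147177891 (Cfap161, plus strand), chr10:57479142-57479171 (Tekt1, minus strand), chr6:15778164-15778193 (Dync2li1, plus strand), chr11:81235273-81235302 (Iqcg, plus strand), chr5:62699653-62699682 (Spag8, plus strand) and chr10:54766053-54766082 (Dnah2, minus strand). Between Control and SC300 these 8 genes differed by little, with log2 ratios from -0.19 for Dnah2, a heavy chain of the inner dynein arm, to 0.42 for Spag8, an inner protein of the doublets. Mlf1, a cilium-associated gene whose product binds 14-3-3 proteins, had 3278 UMIs in Control and 2147 in SC300 selected cells. Tmem107, of the gate at the cilium base, had 1499 and 1103. The promoters of Tmem212 and Dynlrb2 held none of the 4 sets of letters, and that of Tp73 held GTTGCC once.

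To compare Control and SC300, UMIs were summed over the selected cells of each library and scaled to CPM, the share of 1000000 UMIs. Among 5812 genes with at least 100 UMIs, 28 (0.482%) were over 2-fold higher in SC300 and 52 (0.895%) were over 2-fold lower. With at least 50 UMIs, the limit used for lists, 55 of 7658 genes (0.718%) were higher and 118 (1.54%) were lower. In Crym-low cells the counts were 47 of 7117 (0.66%) and 69 (0.97%). The median log2 ratio of all genes was -0.04.

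The motile cilium genes differed little between the libraries. None of the 217 measured cilium-list genes was over 2-fold apart in either direction, and their median log2 ratio was 0.09. List medians ran from 0.01 for intraflagellar transport (37 genes) to 0.17 for the doublet inner proteins (27 genes), with 0.08 for the transcription program (7 genes) and 0.05 for the outer dynein arm (17 genes). The interval of 58 genes lay above 0 and that of 4 lay below, against 582 and 803 of all 7658 genes. The sign of these small medians depended on which cells were taken. With cells admitted by other cilium genes all 11 list medians lay below 0, from -0.03 to -0.14. In Crym-low cells the median over 216 genes was 0.06, again with none past 2-fold, and 44 intervals lay above 0 and 14 below, against 577 and 670 of all 7117 genes. Rsph1 rested on many UMIs, with 432 CPM in Control and 638 CPM in SC300 selected cells (log2 ratio 0.56, interval 0.45 to 0.68). Dnaaf3, a dynein assembly factor, had 73.8 and 132 CPM (log2 ratio 0.84, interval 0.57 to 1.11). Dnah12 had 1053 and 846 CPM (log2 ratio -0.31, interval -0.40 to -0.23). The lowest value belonged to Ttll6, a tubulin polyglutamylase, with 93 and 29 UMIs (log2 ratio -0.99, interval -1.64 to -0.37). The rule gene Ccdc153 had a log2 ratio of 0.27, Tmem212 of 0.17 and Pifo of 0.04, and Dynlrb2 of 0.08.

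**Figure D3:**
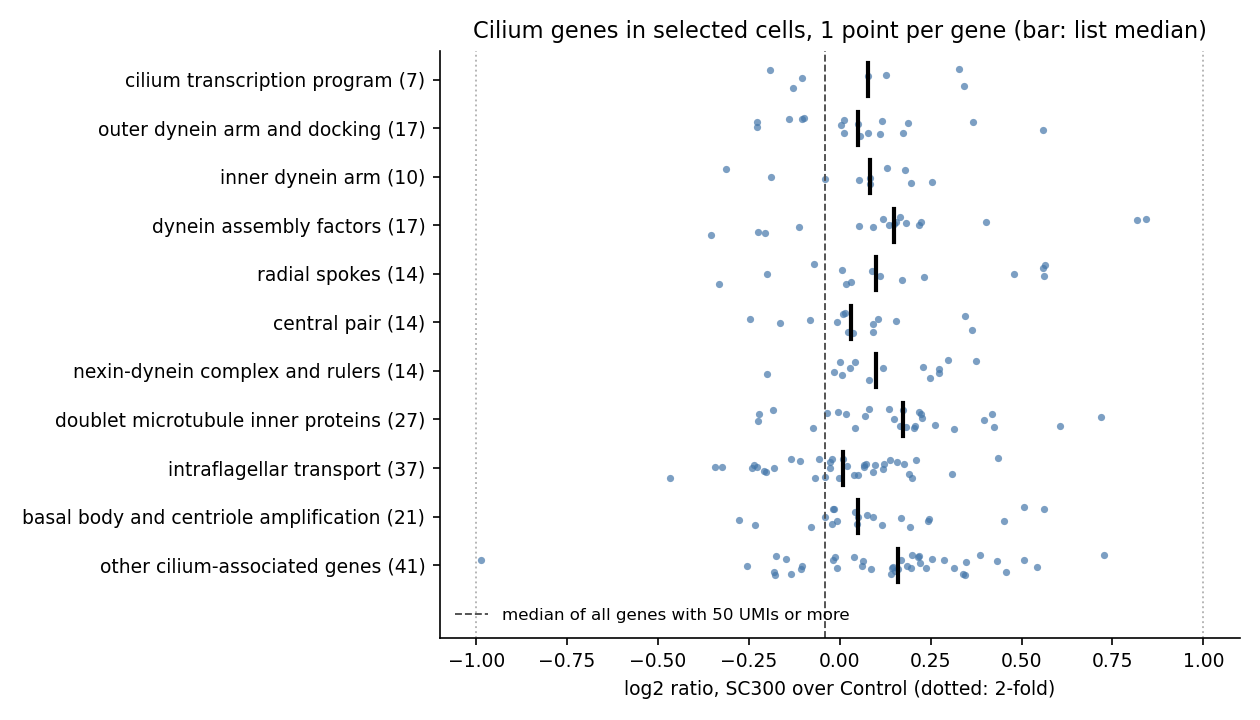
Log2 ratio SC300 over Control in selected cells (horizontal axis) for every measured gene of the 11 cilium lists (vertical axis); 1 point is 1 gene, the bar is the list median, the dashed line is the median of all measured genes (-0.04) and the dotted lines mark 2-fold. No point lies past 2-fold, and the list medians lie between 0.01 and 0.17.

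The highest ratio was that of Tnnt1 (ENSRNOG00000028041), the slow skeletal muscle form of troponin T. In Control selected cells it had 6 UMIs, or 2.04 CPM (interval 0.749 to 4.44), and in SC300 selected cells 1050 UMIs, or 578 CPM (544 to 614). The log2 ratio was 8.15 (7.02 to 9.60), and 10.6 (8.08 to 15.9) in Crym-low cells, where Control had 1 UMI. The ratio rested on these few Control UMIs, and ran from 5.66 with cells admitted by other cilium genes to 10.6. Why it moved was not tested. Of the SC300 UMIs 1021 lay in Crym-low cells, and of the 6 Control UMIs 5 lay in Crym-high cells. In Crym-low cells, a Tnnt1 UMI was seen in 1 of 64 (Control) and 35 of 57 cells (SC300). After thinning, these were 0 of 62 and 20 of 56. Levels were uneven among SC300 Crym-low cells, from 0 to 127 UMIs per 10000 with a median of 0.699. The highest level came from a shallow cell of 1738 UMIs, and the next was 68.7. The 3 selected cells with the most Tnnt1 UMIs held 32.7% of the SC300 total. In the rest of the cells the libraries hardly differed, with 312 UMIs in Control (6.44 CPM) and 374 in SC300 (6.85 CPM). Microglia also held the gene, with a Tnnt1 UMI in 33.0% of Control and 32.4% of SC300 microglia at 57.8 and 57.1 CPM. Tanycyte cells had 13 and 18 UMIs, and astrocytes 30 and 47. Of the other troponins, Tnnc2 had 1 UMI in Control selected cells and 53 in SC300, of which 38 lay in 1 cell.

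Itih3, a heavy chain of the inter-alpha-trypsin inhibitor that is secreted into the matrix, was also higher in SC300. A UMI was seen in 78 of 105 Control and 63 of 78 SC300 selected cells. It had 334 UMIs (114 CPM) in Control and 697 UMIs (384 CPM) in SC300 selected cells (log2 ratio 1.76, interval 1.57 to 1.95), with a log2 ratio of 1.86 (1.65 to 2.08) in Crym-low cells and of 1.01 with cells admitted by other cilium genes. Its median per Crym-low cell was 0.665 UMIs per 10000 in Control and 2.51 in SC300. Astrocytes, where Itih3 was most abundant, differed the other way, at 5169 CPM for Control and 4099 CPM for SC300. Tanycyte cells differed in the same direction as the selected cells, with 131 and 347 UMIs (log2 ratio 1.17, interval 0.87 to 1.47). Arhgap24, a GTPase-activating protein, had a log2 ratio of 1.80 (46 and 99 UMIs), Art3, an ADP-ribosyltransferase family member, of 1.78 (33 and 70), Krt17, a keratin, of 1.70 (37 and 74), and Ankrd37, an ankyrin repeat protein, of 1.53 (52 and 93). Each rested on few UMIs, and all 4 kept a log2 ratio over 1 in Crym-low cells (2.09, 1.74, 1.61 and 1.66).

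**Figure D4:**
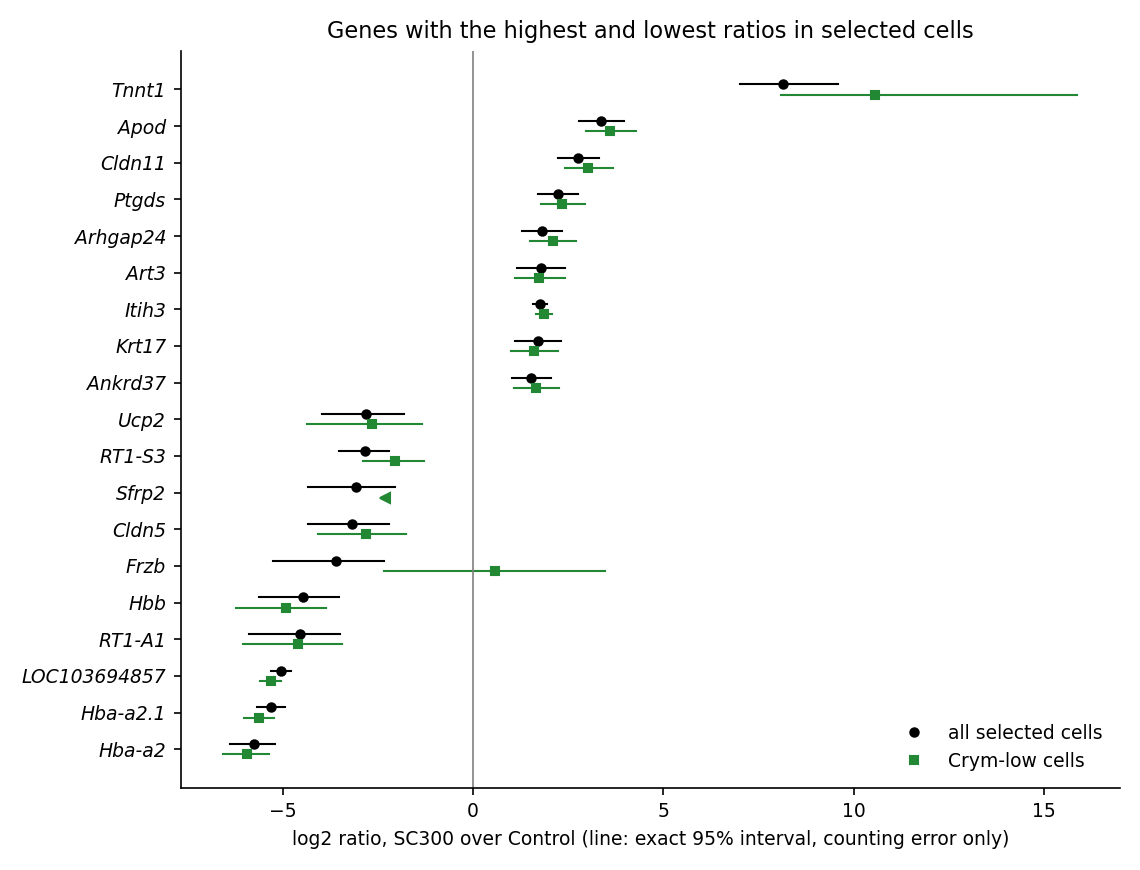
Log2 ratio SC300 over Control (horizontal axis) with its 95% counting interval for 9 of the 10 genes with the highest ratio and the 10 with the lowest among genes with at least 100 UMIs (vertical axis), in all selected cells and in Crym-low cells. Tnnt1 stands highest at 8.15, and Frzb moves from -3.60 in all selected cells to 0.57 in Crym-low cells (3 and 3 UMIs). The Crym-low value of Sfrp2, with no UMI in SC300, is drawn as an upper bound.

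Among the genes that were lower in SC300, RT1-A1, a classical class I heavy chain of the rat, had 266 UMIs (90.5 CPM, 79.9 to 102) in Control and 7 UMIs (3.86 CPM, 1.55 to 7.94) in SC300 selected cells (log2 ratio -4.55, interval -5.88 to -3.49). In Crym-low cells, a UMI was seen in 53 of 64 (Control) and 6 of 57 cells (SC300). The difference ran through the whole library, since the other cells held 105 CPM in Control and 3.77 CPM in SC300, and 459 of 494 Control and 94 of 485 SC300 microglia had a UMI. RT1-S3, a nonclassical class I gene, had 253 and 22 UMIs (log2 ratio -2.83), and 104 and 17 in Crym-low cells (log2 ratio -2.04), and RT1-CE10 had 285 and 72 (log2 ratio -1.29). RT1-CE4 had 537 and 420 UMIs (log2 ratio 0.34), and B2m, the light chain shared by all class I molecules, had 3545 and 2086 (log2 ratio -0.07). Of 9 measured genes on the MHC class I list, 4 were over 2-fold lower and 0 higher, against 118 and 55 of all 7658 measured genes. The list median was -0.67. In Crym-low cells 3 of 9 were over 2-fold lower and 0 higher, against 69 and 47 of all 7117, with a median of -0.46. RT1 genes resemble each other closely and vary between rats, so the counting could split their reads, and each single value is uncertain.

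Ifi27, an interferon-responsive gene, was detected in 105 of 105 Control and 56 of 78 SC300 selected cells, with 729 CPM and 194 CPM (log2 ratio -1.91, interval -2.07 to -1.74). Its median per Crym-low cell was 7.0 UMIs per 10000 in Control and 1.32 in SC300. The other cells had 467 and 229 CPM, and astrocytes 519 and 271. The interferon list was mixed. Of its 12 measured members 1 was over 2-fold higher and 3 lower, against 55 and 118 of all 7658 measured genes. The list median was -0.11. Ifitm3, a membrane protein that restricts viruses, had 100 and 147 UMIs (log2 ratio 1.25, interval 0.87 to 1.63). Psmb9, a subunit of the immunoproteasome, had 135 and 40 UMIs (log2 ratio -1.06, interval -1.61 to -0.54), and Isg15, a ubiquitin-like modifier, had 47 and 12 (log2 ratio -1.27). Ucp2, a mitochondrial carrier, had 102 and 9 UMIs in selected cells (log2 ratio -2.81, and -2.66 in Crym-low cells, but -1.20 with a marker sum of 5 and -0.90 with cells admitted by other cilium genes), while astrocytes held 25.1 CPM in both libraries and microglia 362 and 340 CPM. Tanycyte cells were also lower in SC300, with 108 and 75 UMIs (log2 ratio -0.77, interval -1.21 to -0.33).

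Sparcl1, a secreted matrix protein of glia, had 3252 UMIs (1106 CPM) in Control and 774 UMIs (426 CPM) in SC300 selected cells (log2 ratio -1.38, interval -1.49 to -1.26). In Crym-low cells the median was 13.3 UMIs per 10000 in Control and 3.10 in SC300, with ranges of 0 to 36.0 and 0 to 17.7, so the libraries overlapped. Astrocytes were close, at 6070 and 5837 CPM, and tanycyte cells had 644 and 822 CPM. Gfap and Id1 were 2 further genes of the 29 measured on the glial list that were over 2-fold lower, and none was over 2-fold higher. Over all 7658 measured genes, 118 were lower and 55 higher. The list median was -0.23. The intervals of 17 glial genes lay below 0 and of 2 above, against 803 and 582 of all 7658. In Crym-low cells 16 lay below and 6 above, against 670 and 577 of all 7117. Gfap, an intermediate filament, had 103 and 29 UMIs (log2 ratio -1.13), and Id1, an inhibitor of DNA-binding factors, had 107 and 33 (log2 ratio -1.0). The abundant members differed less. S100b, a calcium-binding protein, had a log2 ratio of -0.30 (15770 and 7924 UMIs) and Vim of -0.23 (12204 and 6413 UMIs).

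**Figure D5:**
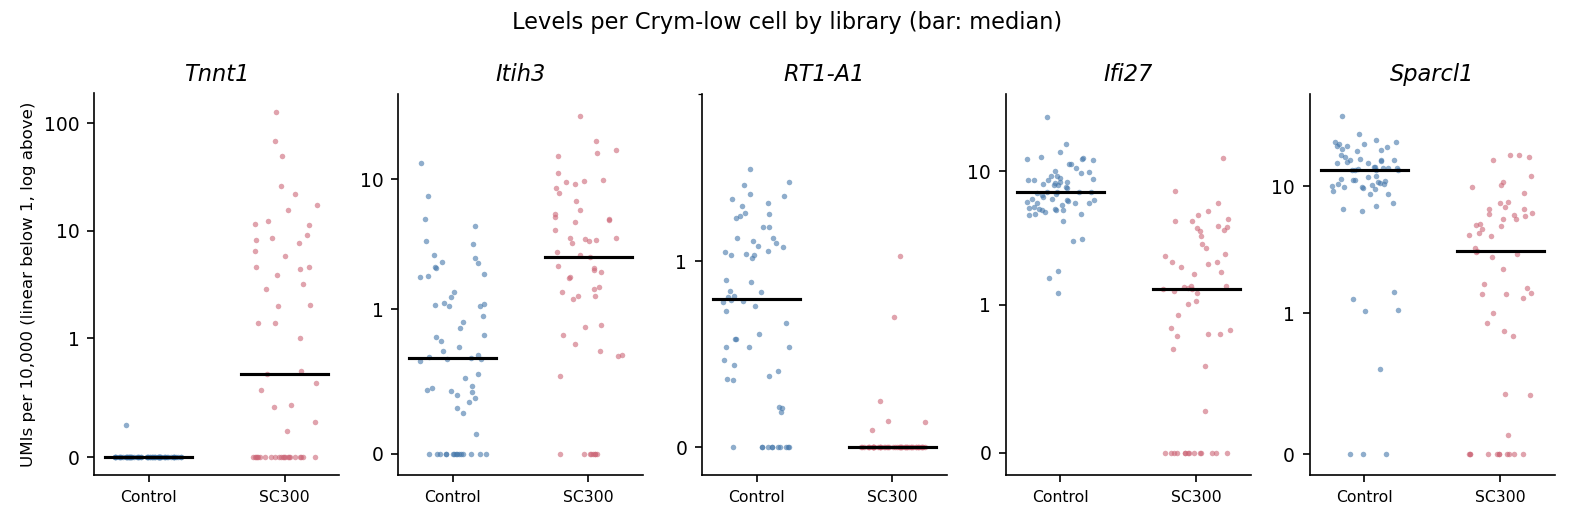
Level in each Crym-low cell (UMIs per 10000 UMIs, linear below 1 and logarithmic above) of Tnnt1, Itih3, RT1-A1, Ifi27 and Sparcl1 in Control and SC300; 1 point is 1 cell and the bar is the median. Tnnt1 is at 0 in all but 1 Control cell and reaches 127 in SC300, in a shallow cell of 1738 UMIs. The medians of Ifi27 (7.0 and 1.32) and Sparcl1 (13.3 and 3.10) are lower in SC300 while the cells of the libraries overlap.

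Immediate-early genes are known to be switched on by tissue dissociation. Of 16 measured members, 1 was over 2-fold higher and none was over 2-fold lower, against 55 and 118 of all 7658 measured genes. The list median was 0.38, and 0.56 in Crym-low cells. Without cells above 20% mitochondrial UMIs the median was -0.02. In tanycyte cells 4 of 12 members were over 2-fold lower in SC300, against 82 of all 4317 measured genes, with a list median of -0.63. Fos had 799 CPM in Control and 1258 CPM in SC300 (log2 ratio 0.66, interval 0.57 to 0.74). Junb had 232 and 378 CPM (log2 ratio 0.71), and Atf3, a stress-induced factor, had 31 and 55 UMIs (log2 ratio 1.52, interval 0.86 to 2.21). Jun had 408 and 410 CPM (log2 ratio 0.01), and Jund 551 and 415 CPM (log2 ratio -0.41). Hspa1b, a heat shock protein that is also induced by dissociation, had a log2 ratio of 0.68, while the heat shock list had a median of -0.01 over 16 genes. The part of dissociation in these values was not tested.

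Receptors of ovarian steroids were rare in selected cells. Esr1, the estrogen receptor alpha gene, had a UMI in 5 of 105 Control and 3 of 78 SC300 selected cells, and in none after thinning. In microglia a UMI was seen in 1 of 494 Control cells and 0 of 485 SC300 cells. Pgr, the progesterone receptor gene, had 0 UMIs in the selected cells of both libraries. Of 25 genes on the hormone receptor list, 9 had at least 50 UMIs, with a median of -0.005. Against 55 and 118 of all 7658 measured genes, 0 of the 9 were over 2-fold higher and 1 was over 2-fold lower. That gene was Esrrg, an orphan receptor related to the estrogen receptors, with 105 and 31 UMIs (log2 ratio -1.06, interval -1.69 to -0.47). Pgrmc1, a membrane protein linked to progesterone, had 332 and 311 CPM (log2 ratio -0.10, interval -0.25 to 0.05). The thyroid hormone receptors Thra and Thrb had log2 ratios of 0.25 (-0.14 to 0.63) and -0.37 (-0.76 to 0.01).

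Other programs of the ventricular lining were described in the same way. Over all 7658 measured genes, 582 intervals lay above 0 and 803 below. None of 22 measured genes for planar polarity, junctions and adhesion was past 2-fold, with a median of -0.05, and 0 intervals lay above 0 and 3 below. Among them Cd24, a surface glycoprotein of ependyma, had 994 and 865 CPM (log2 ratio -0.20), and Gja1, the gap junction protein connexin 43, had 744 and 671 CPM (log2 ratio -0.15). None of 19 measured ion and water transport genes was past 2-fold either, with a median of 0.03, and 2 intervals lay above 0 and 7 below. The water channel Aqp4 had 569 and 672 CPM (log2 ratio 0.24), and the glucose transporter Slc2a1 had 576 and 449 CPM (log2 ratio -0.36). The 11 circadian genes had a median of -0.36, and 0 intervals lay above 0 and 4 below. Against 118 of all 7658 measured genes, 1 of the 11 was over 2-fold lower. This was Dbp, a clock output factor, with 215 and 56 UMIs (log2 ratio -1.25, interval -1.70 to -0.82), but of -0.48 (-1.04 to 0.06) in Crym-low cells. There 0 of 10 measured circadian genes were past 2-fold, with a median of -0.29, and 0 intervals lay above or below 0. The 15 mitochondrially encoded genes had a median of 0.02. Of 17 cell cycle genes found in the files, 4 had at least 50 UMIs, with none past 2-fold, and the proliferation marker Mki67 had 14 and 6 UMIs.

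Gene lists drawn up earlier as lower or higher in SC300 tanycytes were looked at in the selected cells. The lists were chosen on these same libraries, and are not independent evidence of a direction. Of 13 measured genes on the list of lower ones, 9 were over 2-fold lower in selected cells, against 118 of all 7658 measured genes, with a median of -1.57. In Crym-low cells 4 of 10 were, against 69 of all 7117, with a median of -0.69. Several of these genes belonged to the Crym-high cells. Frzb had 98 UMIs in Control and 5 in SC300 selected cells (log2 ratio -3.60, interval -5.25 to -2.33), but 3 and 3 UMIs in Crym-low cells. It rested on few cells, with a UMI in 11 of 105 Control and 2 of 78 SC300 selected cells. Among Crym-high cells these were 9 of 41 and 1 of 21. In Control, 3 cells held 69.4% of the Frzb UMIs. Sfrp2, another secreted Wnt antagonist, had 110 and 8 UMIs (log2 ratio -3.09, interval -4.33 to -2.06), and 88 and 8 of these lay in Crym-high cells. The list of higher genes did not have that direction in the tanycyte cells used here. Its 2 measured members there, both haemoglobin genes, were over 2-fold lower in SC300 (median -1.80), against 82 of all 4317 measured genes. Of its 5 measured members in selected cells, 2 were over 2-fold higher and 3 over 2-fold lower, against 55 and 118 of all 7658 measured genes. The 3 lower ones were the haemoglobin genes described next, and the higher ones were Dio3 and Tnnc2. Dio3, the deiodinase that inactivates thyroid hormone, had 4 UMIs in Control and 73 in SC300 selected cells. In Crym-low cells 3 members of the list were measured, with 0 over 2-fold higher and 3 over 2-fold lower (median -5.61). Dio3 and Tnnc2 had too few UMIs to be measured there, so their higher values hold for all selected cells only.

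Other large ratios rested in part on single cells that carried RNA of another cell type. The haemoglobin genes Hba-a2, Hba-a2.1, LOC103694857 and Hbb had log2 ratios from -5.76 to -4.47. One Control cell of 26042 UMIs, of which 46.3% were haemoglobin, held 12064 of the 13429 haemoglobin UMIs of the Control selected cells (89.8%), and without the leading cell of each library the 4 ratios were -2.45, -1.99, -1.91 and -2.02. A second Control cell held 544 of the remaining UMIs. The myelin gene Cldn11, Ptgds, a prostaglandin synthase, and Apod, a lipocalin, had log2 ratios of 2.75, 2.22 and 3.36. One SC300 cell of 120180 UMIs held 1390 of 1768 UMIs of the oligodendrocyte genes (78.6%), and without the leading cell of each library the ratios were 1.27, 0.17 and 1.38. The caller marked neither cell as a doublet. Over whole marker lists, the oligodendrocyte markers had 936 and 2196 UMIs, with 4 of 6 measured genes over 2-fold higher, and the red cell markers 6916 and 102, with 3 over 2-fold lower. Microglia markers had 47 and 38 UMIs and macrophage markers 2 and 3, so none of these genes could be compared. C1qa, a complement gene and the most counted microglia marker in Control, had 16 and 11 UMIs. Neuron markers had 334 and 125 UMIs, of which Stmn2, a tubulin-binding protein of growing axons, had 227 and 87 (log2 ratio -0.69). Stromal markers had 16 and 59 UMIs, nearly all of them Mgp, an inhibitor of calcification (12 and 56), while Dcn had 1 and 1. Astrocyte markers had 7164 and 3441 UMIs, led by Mlc1 and Gja1, which ependymal cells also express, and Slc1a2, a glutamate transporter gene, had 5 and 5. Agt, the angiotensinogen gene that marks hypothalamic astrocytes, had 456 and 395 UMIs and was detected in 77 of 105 Control and 55 of 78 SC300 selected cells, against 13.6% and 15.3% of microglia. After thinning, Agt remained in 56.1% (Control) and 33.3% (SC300) of Crym-high cells, in 17.7% and 28.6% of Crym-low cells, in 7.14% and 16.1% of tanycyte cells and in 92.2% and 93.5% of astrocytes. Whether these markers entered as free RNA, as attached cells or as doublets was not tested.

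Choroid plexus, an epithelium continuous with the ependyma, was checked in the same way. Folr1, a folate receptor, had 851 and 551 UMIs in selected cells (log2 ratio 0.07, interval -0.09 to 0.22). Clic6, a chloride channel family member, had 107 and 151 UMIs (log2 ratio 1.19, interval 0.83 to 1.56), and was the only gene past 2-fold of the 2 with at least 50 UMIs. The 7 choroid plexus markers found in the files had 966 and 706 UMIs in all. Folr1 and Clic6 held nearly all of these, so the other markers were almost absent from the selected cells.

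Within a library, the genes that varied most among selected cells beyond their depth included genes of the actin skeleton, mitochondrially encoded genes and Apoe. The variance of Tmsb4x, an actin-binding peptide, was 640 times that expected from depth alone in Control and 546 times in SC300. Gsn, the actin-severing protein gelsolin, had 176 and 285, the mitochondrial gene Mt-co2 had 226 and 140, and Apoe had 201 and 130. The iron-storage gene Fth1 had 62.3 and 76.1. The median gene stood at 1.20 and 1.16, and Tmem212 at 3.39 and 2.56. Tmsb4x had a median of 7.11 UMIs per 10000 in Control Crym-low cells and 12.6 in SC300 Crym-low cells, against 146 and 352 in Crym-high cells.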

How the data were processed

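Single-cell RNA-seq (10x Genomics 3′ v3) was done by the authors on collagenase-dissociated hypothalamus, with 1 library for each group. The deposited values are raw UMI counts per gene and cell, made by the authors with Cell Ranger (version 3.0.1 in the labels) against the Ensembl rat transcriptome, with 32883 genes and no normalization. The study gives 2 cell numbers for each library, one equal to the barcodes in the files (4488 and 4524) and a smaller one, and its limit of 200 detected genes leaves a number between these.

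Here, UMIs were summed over the cells of each class and scaled to CPM. Ratios carry exact conditional binomial intervals, CPM values exact Poisson intervals and shares Clopper-Pearson intervals, at 95%. A count of 0 was set to 3 UMIs for a bound. Python 3.11.15, numpy 2.4.6, scipy 1.17.1 and scanpy 1.11.5 (Scrublet, which marked 70 Control and 71 SC300 cells, all kept) were used. Ratio scripts were tested on simulated data. Tanycyte and astrocyte cells were those with at least 3 of 6 marker genes each and sums of at least 5 and 10 UMIs per 10000. Selected cells were left out of both classes. Crym, Frzb, Rax and Gpr50 were among the tanycyte genes, and Agt, Slc7a10, Mlc1 and Gja1 among the astrocyte genes. Their levels in those classes describe the choice. Named genes were the rule genes, the 10 highest and 10 lowest ratios, the 3 most counted members of each list and those past 2-fold, and the leading genes against tanycytes, astrocytes and in spread, of which the text gives examples. Dnaaf3, Dnah9, Ttll6, Junb, Jun and the 6 multiciliated genes were chosen after their values were seen. The members and lists were chosen with earlier results of these data known. Scaling, limits, doublets, mitochondrial content and cell weights were varied. Files held nothing of other series. Some genes that the rule names are not reported here.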

Additional observations from a re-analysis of the deposited data

Results flagged for a closer look

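Cldn5, a tight junction gene of endothelial cells, differed in opposite directions in selected and tanycyte cells. In selected cells Control held 131 UMIs and SC300 held 9 (log2 ratio -3.17, interval -4.33 to -2.20), and in tanycyte cells the counts were 6 and 293 UMIs (log2 ratio 5.37). The difference between the classes was not tested. Of the Control UMIs in selected cells, 74 and 45 lay in 2 cells, the first of which was called a doublet, and without the called doublets the log2 ratio was -1.98. Endothelial markers as a whole had 328 UMIs in Control and 63 in SC300 selected cells, led by Itm2a (135 and 47), and 17 and 578 UMIs in tanycyte cells. Mural cell markers had 25 and 8 UMIs in selected cells and 2 and 66 in tanycyte cells. Their part in the result was not tested.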

How the results depend on the processing

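No paired analysis was possible because each group had 1 library. The log2 ratio of the shares stayed below 0 under each setting tried, from -0.73 (cells above 20% mitochondrial UMIs left out) to -0.19 (Crym-low cells only), but its interval included 0 in Crym-low cells and with a sum of 20 per 10000. The number of genes over 2-fold higher in SC300, 28 in the main analysis, was 48 with a marker sum of 5 per 10000, 65 with cells chosen by other cilium genes, 55 with at least 50 UMIs per gene and 13 with at least 200. The number over 2-fold lower, 52 in the main analysis, was 30 with a marker sum of 20 per 10000, 85 with other cilium genes, 31 in Crym-low cells, 89 with every cell weighted alike, 118 with at least 50 UMIs and 22 with at least 200. The counts of genes higher than in tanycyte cells (571 to 1106) and in astrocytes (1152 to 1629) stayed within 1.5 times the main ones. Among values past 2-fold, 2 changed sign. These were Frzb and the median of the list drawn up earlier as higher in SC300 tanycytes. That median was 4.78 with a sum of 5 and 3.92 with other cilium genes. The measured members of the list were lower in the tanycyte cells used here. Frzb was 0.52 with a sum of 20 and 0.57 in Crym-low cells, where it had only 3 UMIs in each library. The Tnnt1 ratio ran from 5.66 (other cilium genes) to 10.6 (Crym-low cells), with 6.39 at a sum of 5 and 6.99 with every cell weighted alike, and that of Ucp2 from -3.57 at a sum of 20 to -0.90 (other cilium genes). Several list medians nearer to 0 also changed sign, such as the radial spokes (-0.09 with a sum of 5), the tanycyte markers (0.57) and the neuron markers (0.21) there, the interferon list with a sum of 20 (0.06), and the immediate-early genes without cells above 20% mitochondrial UMIs (-0.02). The cause was not tested, except that Frzb lay in Crym-high cells. Other scalings shifted all genes by -0.04 and -0.03. Requiring all 4 rule genes gave no value, since Foxj1 was not analysed here. The Crym cut and the runs without leading cells were chosen after seeing the data. Genes under 50 UMIs were too shallow to be compared.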
